A study of Mus musculus with 6 samples.

Results

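The 10 genes Tmem119, Siglech, Fcrls, Olfml3, Selplg, Slc2a5, Sparc, Crybb1, Golm1 and Bin1 were followed as surface, secreted and other non-nuclear markers of homeostatic microglia, the resting state of the resident macrophages of the brain. They were chosen by gene symbol, 1 row per Ensembl identifier, and all 10 were found among the 55487 identifiers of the count table and passed the filter on low counts, which left 15787 genes. RNA was read from cortical microglia of 6 female mice aged 20 months, sorted by flow cytometry as viable CD11b+ cells of intermediate CD45 level, more than 20000 cells per mouse. All 6 mice had the genotype Atg7-fl/fl, that is, floxed alleles of the autophagy gene Atg7. The 3 control mice carried no Cre, and the 3 knockout mice also carried Cx3cr1-CreERT2, an inducible Cre recombinase expressed from the Cx3cr1 locus in microglia and other myeloid cells. The effects of the deletion and of carrying Cre therefore cannot be told apart, and the labels give neither an inducing treatment nor the time since deletion.

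Homeostatic microglia keep a gene program that distinguishes them from blood-derived and border macrophages. The program depends on the lineage factor PU.1 and on TGF-beta signalling, and many of its genes are reduced when microglia enter inflammatory or disease-associated states. The markers followed here include membrane proteins, secreted matrix proteins and proteins of the cell interior, so they share a cell type and not a biochemical pathway.

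Library totals ran from 1254380 to 39389527 reads. Control 3, with 1254380 reads, and knockout 2, with 3789208 reads, were shallow, and the other 4 libraries held 21282335 reads or more. Atg7 lay at 65.7, 66.4 and 56.6 CPM (reads per 1000000, scaled by TMM) across controls 1 to 3, against 25.0, 26.5 and 23.7 CPM across knockouts 1 to 3 (-1.33 on the log2 scale, SE 0.19, edgeR adjusted p = 0.0147). Among genes with a mean of 100 CPM or more, control 3 was the lowest of the 3 controls in 64.5%, and its median level was 87.0% of the mean of controls 1 and 2. That property of control 3 bears on most values below.

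The 10 markers were expressed strongly in both groups, and all 10 had a mean in the knockouts below that in the controls, but none of these differences passed the test. Their log2 fold changes, knockout over control, ran from -0.67 for Crybb1 to -0.18 for Siglech with a median of -0.29, against a median of 0.02 over all genes tested and -0.02 over the 1588 genes with a mean of 100 CPM or more. EdgeR called 0 of the 10 lower, where it called 0.0127% of all genes lower, and 0 higher, where it called 0.0317% of all genes higher. At an unadjusted p under 0.05, edgeR found 3 markers lower (1.98% of all genes and 3.21% of genes of 100 CPM or more) and 0 higher (2.34% of all genes). DESeq2 called 0 markers, against 0.209% of all genes lower and 0.285% higher, and limma voom called 0, against 0.038% lower and 0.057% higher. Before adjustment, p was under 0.05 in 5 markers with DESeq2, all lower, against 2.42% of all genes and 5.67% of genes of 100 CPM or more. With voom it was under 0.05 in 8, all lower, against 5.05% and 7.75%. A value below 0 was found in 47.5% of all genes and in 54.5% of those with a mean of 100 CPM or more. In bulk RNA, fewer cells of a type and less RNA per cell cannot be told apart.

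**Figure D1:**
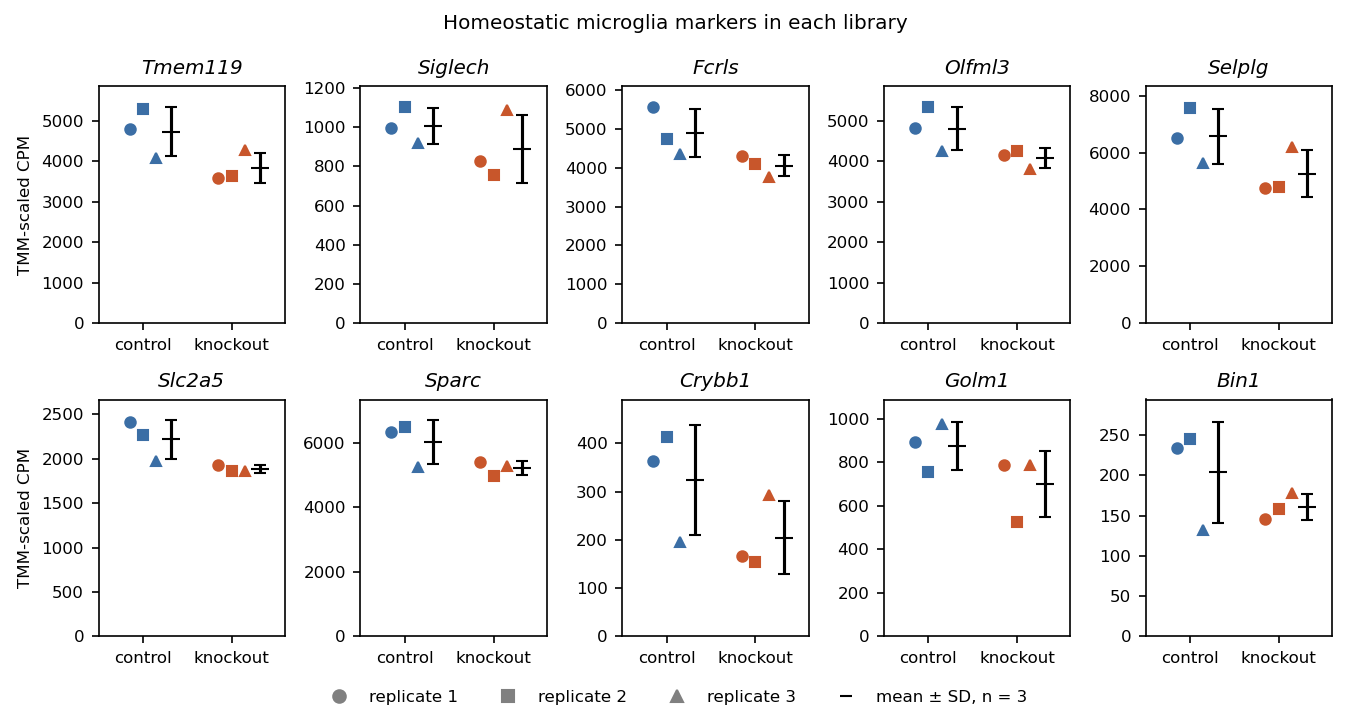
TMM-scaled CPM of the 10 markers (vertical axes, each from 0) in 3 control and 3 knockout libraries, with marker shapes for the replicate number and black bars for the mean ± SD, n = 3. The knockouts lie wholly below the controls for Fcrls, Olfml3 and Slc2a5, and the groups overlap for the other 7 genes.

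Promoter windows give the sequence context of these markers. RefSeq's GRCm38.p6 windows, from 250 bases before to 50 after a gene's start, were matched for 7 of the 10 markers: Siglech, Fcrls, Olfml3, Slc2a5, Sparc, Crybb1 and Golm1. Those of Fcrls (chr3:87263475-87263774, minus strand), Siglech (chr7:55767934-55768233, plus strand) and Crybb1 (chr5:112255570-112255869, plus strand) are shown because Fcrls did not overlap between the groups, Crybb1 had the lowest fold change and Siglech the fold change nearest 0. Capitals mark GAGGAA, a core of PU.1 sites, and TATAAA, the letters of the TATA box, each on either strand.
Fcrls: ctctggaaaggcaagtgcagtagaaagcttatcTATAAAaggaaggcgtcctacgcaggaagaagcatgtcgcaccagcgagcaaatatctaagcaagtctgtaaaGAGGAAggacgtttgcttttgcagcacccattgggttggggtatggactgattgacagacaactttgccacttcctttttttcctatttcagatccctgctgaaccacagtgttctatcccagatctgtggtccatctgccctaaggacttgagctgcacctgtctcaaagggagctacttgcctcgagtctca
Siglech: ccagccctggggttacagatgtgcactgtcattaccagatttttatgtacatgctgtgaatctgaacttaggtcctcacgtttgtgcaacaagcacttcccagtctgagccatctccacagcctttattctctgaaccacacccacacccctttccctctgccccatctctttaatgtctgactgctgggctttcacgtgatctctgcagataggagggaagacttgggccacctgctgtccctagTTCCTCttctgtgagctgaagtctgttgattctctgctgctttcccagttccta
Crybb1: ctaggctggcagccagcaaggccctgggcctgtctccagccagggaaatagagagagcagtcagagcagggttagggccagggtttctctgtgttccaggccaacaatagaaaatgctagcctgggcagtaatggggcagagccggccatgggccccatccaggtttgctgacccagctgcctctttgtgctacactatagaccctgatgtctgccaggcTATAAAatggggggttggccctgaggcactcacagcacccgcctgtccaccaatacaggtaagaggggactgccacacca

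GAGGAA, searched on both strands, was in the windows of Fcrls, where it began 144 bases before the start, and of Siglech, 4 bases before it on the opposite strand, so in 2 of the 7 markers and in 28.3% of all 32851 windows. TATAAA, also searched on both strands, was in the windows of Crybb1, 30 bases before the start, and of Fcrls, 217 bases before it. In the window of Golm1 it lay 185 bases before the start on the opposite strand. It was in 13.6% of all windows. The SMAD palindrome GTCTAGAC was in 0 of the 7 windows and in 0.213% of all. No matches overlapped each other in the 3 windows shown. Fcrls, with both GAGGAA and TATAAA, did not overlap between the groups, and neither did Olfml3 and Slc2a5, whose windows held none of the 3 motifs. The groups overlapped for Siglech, Crybb1 and Golm1, whose windows held GAGGAA or TATAAA, and for Sparc, whose window held neither. Whether the motifs relate to the group difference was not tested.

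Among the membrane proteins, Tmem119, a transmembrane protein used to tell microglia from other brain macrophages, had 4811, 5293 and 4087 CPM across controls 1 to 3, against 3599.9, 3629.9 and 4273 CPM across knockouts 1 to 3. Knockouts 1 and 2 were below all controls, and knockout 3 lay between control 3 and control 1. The means were 4730.3 ± 607 and 3834 ± 380.1 CPM (SD, n = 3), a log2 fold change of -0.30 with a 95% interval of -0.57 to -0.04 before adjustment (SE 0.13, edgeR adjusted p = 0.999).

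Selplg encodes P-selectin glycoprotein ligand, a leukocyte adhesion protein. It had 6522, 7572 and 5617 CPM across controls 1 to 3, against 4766, 4801 and 6202 CPM across knockouts 1 to 3. As for Tmem119, knockout 3 stood above control 3 while knockouts 1 and 2 stood below every control. The log2 fold change was -0.32 (interval -0.61 to -0.03, edgeR adjusted p = 0.999).

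Siglech, a sialic acid-binding lectin that signals through the adaptor DAP12 and is also known from plasmacytoid dendritic cells, had 998, 1102 and 922 CPM in controls 1 to 3. In knockouts 1 to 3 it had 830.3, 756 and 1086 CPM. Knockout 3 lay above 2 of the 3 controls, and the log2 fold change was -0.18 (interval -0.50 to 0.15, edgeR adjusted p = 0.999). The summed markers of plasmacytoid dendritic cells were 12.5, 19.1 and 7.86 CPM across the controls, against 12.7, 10.9 and 11.2 CPM across the knockouts. Cox6a2 carried most of each sum, with 8.55, 13.2 and 6.29 CPM in controls and 9.62, 8.31 and 9.25 CPM in knockouts. Klk1, another of these markers, had 0 reads in all 6 libraries, and Ly6d did not pass 0.260 CPM.

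Fcrls, a member of the Fc receptor-like family with a scavenger receptor domain, did not overlap between the groups. It had 5566, 4747 and 4356 CPM across controls 1 to 3, against 4306, 4109 and 3755 CPM across knockouts 1 to 3. All 3 knockouts were below all 3 controls, with knockout 1 close to control 3. The log2 fold change was -0.27 (interval -0.53 to -0.01, edgeR adjusted p = 0.999).

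Slc2a5, the fructose transporter GLUT5, had 2411, 2265 and 1975 CPM across controls 1 to 3, against 1934, 1861 and 1862 CPM across knockouts 1 to 3. The knockouts lay close together, with an SD of 41.7 CPM against 222 CPM in the controls, and below each control. Its log2 fold change was -0.23 (interval -0.49 to 0.03, edgeR adjusted p = 0.999).

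Both secreted proteins had narrow knockout groups. Olfml3, an olfactomedin-like matrix glycoprotein, had 4814, 5350.4 and 4266 CPM across controls 1 to 3, against 4164, 4264 and 3813 CPM across knockouts 1 to 3. The groups did not overlap, but control 3 and knockout 2 were nearly equal. The log2 fold change was -0.24 (interval -0.49 to 0.01, edgeR adjusted p = 0.999).

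Sparc, a matricellular glycoprotein that binds collagen and is also made by endothelium and astrocytes, had 6328, 6497 and 5240.35 CPM in controls 1 to 3. In knockouts 1 to 3 it had 5392, 4975 and 5263 CPM. Control 3 fell among the knockouts, and the log2 fold change was -0.21 (interval -0.45 to 0.03, edgeR adjusted p = 0.999). Summed endothelial and mural markers were 56.4, 35.0 and 84.1 CPM across the controls, against 41.4, 55.3 and 37.8 CPM across the knockouts, and astrocyte markers ran from 300.2 to 335 CPM and from 279 to 372 CPM. A single gene carried most of each sum: Pecam1, with 52.7, 30.2 and 78.6 CPM in controls and 36.0, 49.4 and 32.2 CPM in knockouts, and Slc1a3, with 266 to 298 CPM in controls and 250.1 to 326 CPM in knockouts. Rgs5 was at 0 in every library, and Cldn5, Esam and Vtn did not pass 0.786 CPM. Their part in the Sparc values was not tested.

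Crybb1 and Bin1 had the lowest fold changes of the 10. Crybb1, a beta-crystallin best known as a lens protein and expressed in microglia, had 364, 414 and 196 CPM across controls 1 to 3, against 167, 154 and 292 CPM across knockouts 1 to 3. Controls 1 and 2 stood above the rest, while control 3 was below knockout 3. Its log2 fold change of -0.67 came with a wide interval of -1.55 to 0.21 (SE 0.36, edgeR adjusted p = 0.999). Cryba4, the crystallin gene whose start lies 3302 bases from that of Crybb1 in RefSeq's GRCm38.p6 annotation, averaged 52.2 ± 15.3 CPM for controls against 51.0 ± 7.12 CPM for knockouts (-0.06 on the log2 scale, SE 0.23, edgeR adjusted p = 0.999). It was singled out for its position after its values had been seen.

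Bin1 encodes a BAR-domain protein of membrane curvature and endocytosis, and its human counterpart is a risk locus for late-onset Alzheimer's disease. It had 233, 245 and 132 CPM across controls 1 to 3, against 145, 158 and 178 CPM across knockouts 1 to 3. Control 3 was the lowest of the 6 libraries. Its log2 fold change was -0.35 (interval -0.80 to 0.10, edgeR adjusted p = 0.999), and -0.59 without control 3 (edgeR adjusted p = 0.170). Oligodendrocytes also express Bin1, and their summed markers ran from 218 to 256 CPM among controls and from 212 to 236 CPM among knockouts. Cnp, the largest of them, had 144, 156 and 153 CPM in controls against 116, 128 and 121 CPM in knockouts, while 5 of the 6 markers tested had a log2 fold change above 0 (median 0.48) and edgeR called 0. The part of these cells in the Bin1 values was not tested.

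Golm1, a membrane protein of the Golgi apparatus that can be cleaved and released, ran against the others in control 3. It had 895, 758 and 975 CPM across controls 1 to 3, against 787, 526 and 787 CPM across knockouts 1 to 3. Control 3 was the highest library and the shallow knockout 2 the lowest, while knockouts 1 and 3 lay between controls 1 and 2. The log2 fold change was -0.32 (interval -0.68 to 0.04, edgeR adjusted p = 0.999), and -0.08 with both shallow libraries left out. In the GENCODE M21 annotation, 29.3% of the exonic bases of Golm1 are also exonic in Naa35 on the opposite strand. Reads of the 2 genes there cannot be told apart if counting ignored strand, which the sources used here do not state. Naa35 averaged 125 ± 17.1 CPM for controls against 118 ± 14.6 CPM for knockouts. Bin1 shares 6.22% of its exonic bases in the same way with A830052D11Rik, which had 1.15 and 1.18 CPM, and the other 8 markers share 0%.

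**Figure D2:**
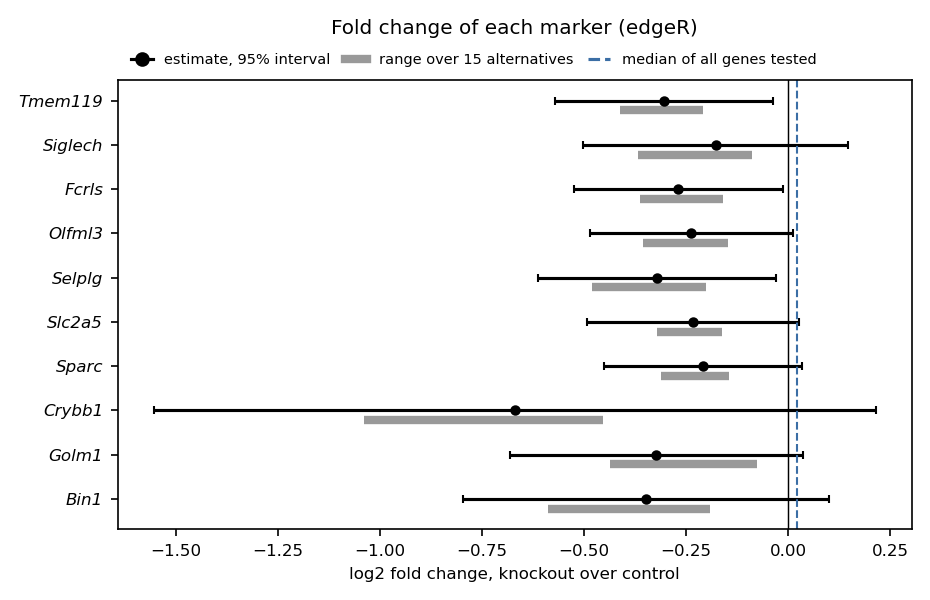
Log2 fold change, knockout over control, of the 10 markers (points) with unadjusted 95% intervals from edgeR (thin lines), the range over 15 alternative settings (grey bars) and the median of all genes tested (dashed, 0.02). All points and all grey bars lie below 0, and the intervals of Tmem119, Fcrls and Selplg exclude 0 before adjustment.

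Each of the 10 markers was set against the mean of controls 1 and 2, which is 100% by definition, so only the remaining libraries can be read from it. The median of the markers was 80.5%, 71.9% and 80.9% of that mean in knockouts 1 to 3, where the genes of 100 CPM or more had medians of 96.8%, 91.5% and 98.4%. In control 3 the markers had a median of 82.8%, against 87.0% for the genes of 100 CPM or more, which include the markers. Control 3 was the lowest control in 9 of the 10 markers, all but Golm1, against the 64.5% given above. The summed level of the 10 markers was 32944, 34244.5 and 27765 CPM across controls 1 to 3, against 26092, 25233 and 27511 CPM across knockouts 1 to 3. Control 3 and knockout 3 were thus nearly level in the sum.

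**Figure D3:**
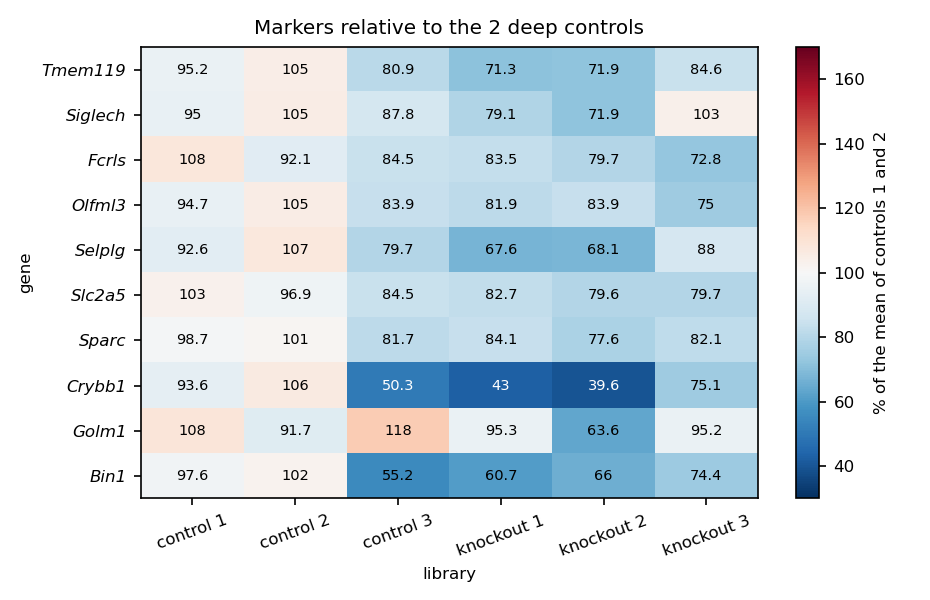
Level of each marker (rows) in each library (columns) as a percentage of the mean of controls 1 and 2, with the value printed in each cell. Control 3 resembles the knockouts for most genes, with 50.3% for Crybb1 and 55.2% for Bin1, and knockout 3 reaches 103% for Siglech.

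All 3 knockouts were below all 3 controls in 3 markers, Fcrls, Olfml3 and Slc2a5, and above them in 0. The knockouts lay wholly below in 4.47% of all genes and in 6.11% of those with a mean of 100 CPM or more, and wholly above in 6.59% of all genes. Leaving out a library can only keep or raise this count, and 2 libraries raised it most. Without control 3 it was 8 of 10, all but Siglech and Golm1, where 12.5% of all genes and 22.5% of genes of 100 CPM or more separated in this way. Without knockout 3 it was 7 of 10, where 9.67% and 13.7% did. In control 3 the markers had from 168 reads for Bin1 to 7148 reads for Selplg.

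Knockout 3 divided the markers. It was the highest knockout for Tmem119, Siglech, Selplg, Crybb1 and Bin1, at 84.6%, 103%, 88.0%, 75.1% and 74.4% of the mean of controls 1 and 2. It was the lowest knockout for Fcrls and Olfml3, at 72.8% and 75.0%. Without knockout 3, the log2 fold changes of Crybb1 and Siglech were -1.04 and -0.37, more than 1.5 times the values with all libraries. Without control 2, those of Olfml3, Selplg, Siglech and Bin1 were -0.15, -0.20, -0.10 and -0.19, and without control 1 that of Fcrls was -0.16. Without knockout 2, Siglech had -0.09 and Golm1 -0.17.

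Markers of other myeloid cells, which the CD45 and CD11b gate is meant to leave out, also differed between libraries. Summed neutrophil markers were 45.9, 363 and 482 CPM across controls 1 to 3, against 2003, 654 and 144 CPM across knockouts 1 to 3, with all 9 tested of 10 above 0 in log2 fold change. Border-associated macrophage markers were 14.9, 40.4 and 90.4 CPM against 255, 163 and 64.2 CPM, with 9 of 9 above 0. Monocyte markers were 14.5, 45.8 and 53.4 CPM against 147, 74.3 and 26.1 CPM, with all 5 tested of 6 above 0. In all 3 lists control 1 was the lowest library and control 3 the highest control, and knockout 1 was the highest and knockout 3 the lowest knockout. For border macrophages and monocytes, the place of control 3 above knockout 3 rested on 1 gene each. Mrc1 had 7.55, 10.4 and 58.1 CPM across controls 1 to 3, against 78.6, 58.2 and 25.4 CPM across knockouts 1 to 3. Chil3, of the monocyte list, had 1.79, 24.2 and 36.9 CPM against 107, 50.9 and 9.30 CPM. The part of these cells in the values of the 10 markers was not tested. The largest of these sums, 2003 CPM, compares with a summed level of 26092 CPM for the 10 markers in the same library.

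Neurons and lymphocytes were near 0. Neuronal markers summed to at most 6.29 CPM and those of T, B and NK cells to at most 5.19 CPM in any library. Ms4a1 of B cells, Ncr1 of NK cells and Rgs5 of mural cells had 0 reads in all 6 libraries.

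**Figure D4:**
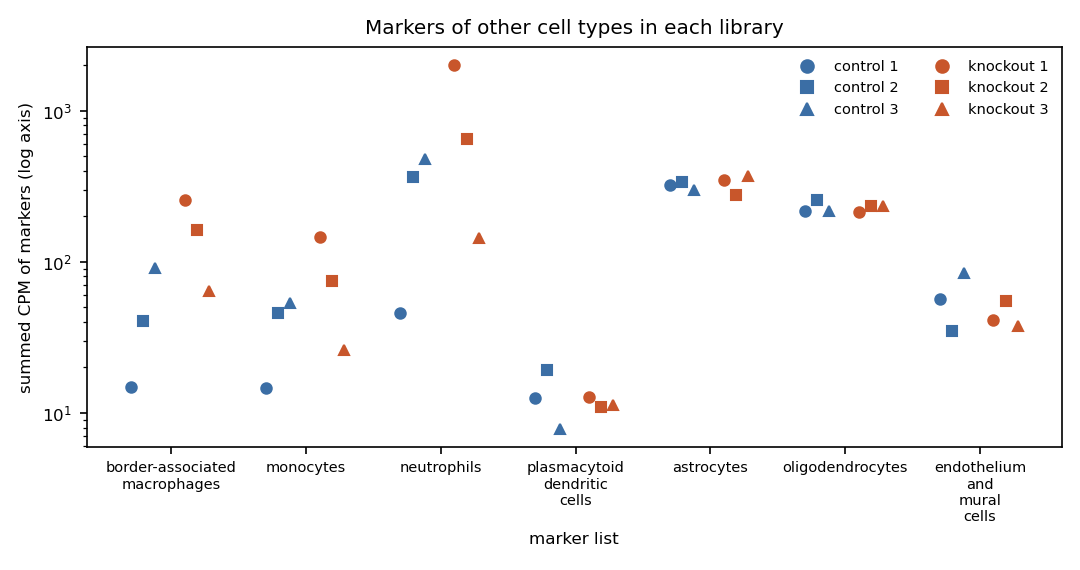
Summed TMM-scaled CPM (log axis) of marker lists for 7 other cell types in each library, with shapes for the replicate number. Neutrophil markers range from 45.9 CPM in control 1 to 2003 CPM in knockout 1. Knockout 3 lies below control 3 in the neutrophil, border macrophage and monocyte lists. For border macrophages and monocytes, Mrc1 and Chil3 carried that difference.

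The levels of the 10 markers were compared with each other per kilobase of exonic sequence in GENCODE M21, pooled over isoforms. In the controls, Fcrls had 2095 ± 265 and Tmem119 2043 ± 262 CPM per kilobase (SD, n = 3), followed by Sparc at 1590 ± 180.1 and Selplg at 1538 ± 229. Olfml3 had 781 ± 88.0, Slc2a5 652 ± 65.3, Crybb1 329.7 ± 116 and Siglech 298 ± 26.8 CPM per kilobase. Golm1 had 198 ± 24.8 and Bin1 49.4 ± 15.1. The means of Fcrls and Tmem119, and those of Sparc and Selplg, differed by less than the SD of either gene. Those of Crybb1 and Siglech differed by less than the SD of Crybb1 but by more than that of Siglech, with overlapping libraries. The ranges of Olfml3 and Slc2a5 also overlapped, but within each library, control or knockout, Olfml3 stood above Slc2a5. Within single controls the other orders changed: Fcrls was below Tmem119 and Sparc below Selplg in control 2, and Crybb1 below Siglech in control 3. The order in the knockouts was the same except that Siglech, at 263 ± 51.3, stood above Crybb1, at 208 ± 77.3 CPM per kilobase.

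Other genes of the homeostatic program had log2 fold changes from -1.23 for Gpr165 to 0.18 for Gas6. Of 39 listed genes, all tested, 33 had a log2 fold change below 0 and the median was -0.12. EdgeR called 1 lower and 0 higher, DESeq2 2 lower and voom 1 lower. At an unadjusted p under 0.05, 4 were lower in edgeR, where 1.98% of all genes were. The gene called by edgeR was Cx3cr1, the fractalkine receptor gene, which fell from 10619.7 ± 907 to 4710.2 ± 791 CPM (-1.17 on the log2 scale, SE 0.13, edgeR adjusted p = 0.00126). The Cre allele sits at this locus, so the effect of the allele and that of Atg7 loss cannot be told apart.

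Several further genes of that list were singled out after their values had been seen. Csf1r, the receptor for colony-stimulating factor on which microglia depend for survival, had -0.22 (SE 0.11), with all 3 knockouts below all 3 controls. The purinergic receptor genes P2ry12 and P2ry13 had -0.03 (SE 0.10) and -0.01 (SE 0.11), and the orphan receptor gene Gpr34 had 0.01 (SE 0.12). For P2ry12 the interval was -0.25 to 0.19, within which lie the point estimates of Siglech, Sparc, Slc2a5 and Olfml3. Those of Tmem119, Fcrls, Selplg, Crybb1, Golm1 and Bin1 lie below it. Such a position is not a test of a difference. Whether the 10 markers differ from Csf1r, P2ry12, P2ry13 or Gpr34 was not tested.

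**Figure D5:**
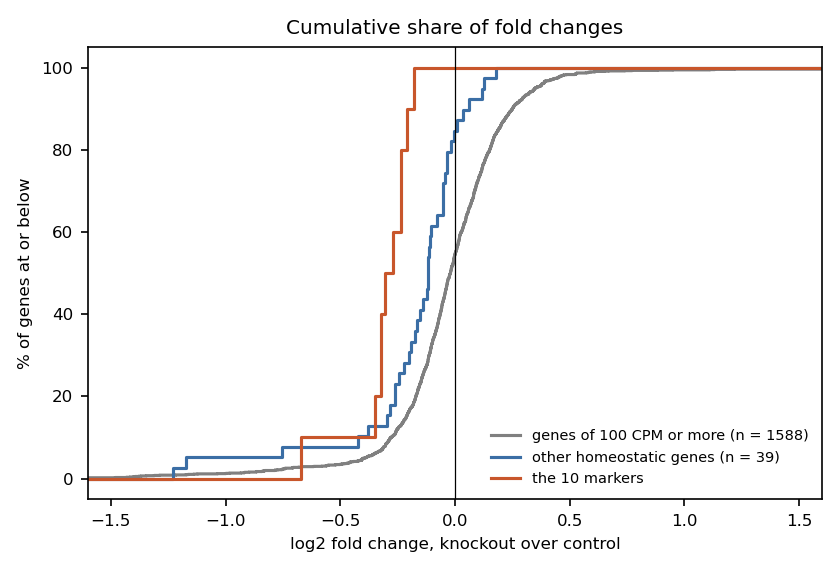
Cumulative share of genes (vertical axis, %) at or below a log2 fold change, knockout over control (horizontal axis, drawn from -1.6 to 1.6), for the 10 markers, 39 other homeostatic genes and 1588 genes with a mean of 100 CPM or more. The markers lie between -0.67 and -0.18, and the median is -0.29 for the markers, -0.12 for the other homeostatic genes and -0.02 for the abundant genes.

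Regulators of the program had a median near 0. Of 14 regulators, which include PU.1 (Spi1), Irf8, Sall1 and the TGF-beta pathway, 9 were below 0 and the median was -0.07. EdgeR, DESeq2 and voom called 0, and edgeR found 0 at an unadjusted p under 0.05. The smallest p belonged to the TGF-beta receptor gene Tgfbr1 (-0.17, SE 0.14), the transcription factor gene Runx1 (0.20, SE 0.21) and the TGF-beta mediator gene Smad2 (0.17, SE 0.18), each with an edgeR adjusted p of 0.999.

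Relatives and partners of single markers were looked at next. Among 9 lectins and adaptors related to Siglech, edgeR, DESeq2 and voom called 0, while 1 was lower in edgeR at an unadjusted p under 0.05, and the median was 0.09. That gene, Siglecg, an inhibitory lectin of B cells, averaged 12.6 ± 4.06 CPM for controls against 4.61 ± 0.803 CPM for knockouts (-1.41, SE 0.40, edgeR adjusted p = 0.540), with no overlap. Siglece, an inhibitory lectin of myeloid cells, had 285 ± 12.3 and 248 ± 18.7 CPM (-0.20), also with no overlap. Siglec1, the macrophage lectin sialoadhesin, had 0.973, 1.40 and 1.57 CPM across the controls, against 2.55, 8.05 and 1.49 CPM across the knockouts.

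Of 6 relatives of Fcrls, 3 were tested, with 0 called by edgeR, DESeq2 or voom and 0 at an unadjusted p under 0.05. Fcrl1 had 171, 153 and 179 CPM across controls 1 to 3, against 136, 128 and 146 CPM across knockouts 1 to 3, without overlap (-0.29, SE 0.15, edgeR adjusted p = 0.999). This was near the value of Fcrls, -0.27. Fcer1g, the shared signalling chain of Fc receptors, had 0.05 (SE 0.14), and Fcrlb did not exceed 2.92 CPM.

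For Selplg, 13 selectins and enzymes that build its glycans were listed and 11 tested. The smallest p values belonged to 3 of its enzymes. The galactosyltransferase gene B4galt1 had a log2 fold change of -0.29 (SE 0.17), the fucosyltransferase gene Fut4 -1.06 (SE 0.85) and C1galt1, whose product extends O-glycans, 0.74 (SE 0.63), each with an edgeR adjusted p of 0.999. C1galt1 had 5.05, 4.57 and 0 CPM across controls 1 to 3, all below the 6.01, 7.27 and 5.53 CPM of knockouts 1 to 3.

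Among 9 tested of 13 sugar carriers and fructose enzymes beside Slc2a5, edgeR and voom called 0, while 2 were lower in edgeR at an unadjusted p under 0.05, and DESeq2 called 1 lower. Slc2a8, an intracellular glucose carrier, had 39.3, 46.0 and 11.8 CPM across controls 1 to 3, against 7.34, 6.23 and 12.7 CPM across knockouts 1 to 3 (-1.92, SE 0.46, edgeR adjusted p = 0.447, DESeq2 adjusted p = 0.00211). Control 3 again lay among the knockouts. Slc2a10 had 10.5 ± 4.69 and 4.39 ± 1.05 CPM (-1.18, SE 0.45), without overlap, and the aldolase gene Aldoc had 0.48 (SE 0.37).

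The remaining lists had 0 genes called by edgeR, DESeq2 or voom. In matrix genes related to Sparc and Olfml3, 6 of 12 were tested, with 0 at an unadjusted p under 0.05 and a median of 0.32. Olfml2b had 0.37 (SE 0.21), and Spock1 and Spock2 had at most 1.92 CPM. In other crystallins, 7 of 13 were tested, with 0 at an unadjusted p under 0.05. Cryl1 had 0.10 (SE 0.18), while Cryab and Crybg2 had at most 4.53 CPM.

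In Golgi membrane genes beside Golm1, 10 of 11 were tested, of which 2 were lower at an unadjusted p under 0.05, and the median was 0.04. The stacking protein gene Gorasp2 had -0.44 (SE 0.20) and the golgin gene Golga5 -0.68 (SE 0.32), each with an edgeR adjusted p of 0.999, and Golph3 had -0.50 (SE 0.28). In BAR and endocytosis genes beside Bin1, 19 of 22 were tested, with 0 at an unadjusted p under 0.05 and a median of 0.02. The adaptor gene Ap2b1 had -0.29 (SE 0.16), the sorting receptor gene Sorl1 0.34 (SE 0.20) and Bin3, a BAR-domain relative of Bin1, 0.32 (SE 0.19).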

How the data were processed

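RNA of 6 microglia libraries was made into cDNA with a SMARTer Ultra Low kit, per the labels' protocols. The deposited table gives, for every gene and library, the raw count of reads, per the file headers. The submitters' processing notes name STAR, Subread, featureCounts, Salmon and GRCm39. The sources used here do not state how strand was handled. Of 55774 rows, 287 repeated an identifier with the same counts and were left out; 0 rows named no gene. No molecular identifiers are mentioned, so reads are not independent molecules.

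The whole table was fitted with edgeR 4.0.16 in R 4.3.3 (default expression filter, TMM scaling, robust quasi-likelihood F-test, two-sided, group as the only term), adjusted by Benjamini-Hochberg over 15787 genes and called at an adjusted p under 0.05. SE is the size of the coefficient over the square root of F. DESeq2 1.42.0 and limma 3.58.1 (voom) were among 15 alternatives. The steps were tested on simulated data whose nonzero changes were all larger than those of most markers. That run does not show whether changes of the markers' size would be called. Replicates are separate mice by their titles.

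The members and gene lists were chosen with earlier results of these data known. A few listed genes are not reported here, and the counts of the lists are without them. Named genes were the 10 markers, Atg7, Cx3cr1 and, in each list, the genes called by edgeR or otherwise up to 3 with the smallest p. Cryba4, Csf1r, P2ry12, P2ry13, Gpr34, Gpr165, Gas6 and single markers of other cell types fall outside this rule and were chosen after their values had been seen; Naa35 and A830052D11Rik are named for sharing exonic bases with a marker. Motif letters were searched in RefSeq promoter windows. Exonic lengths came from GENCODE M21 (an annotation of the preceding assembly), in which 99.4% of identifiers were found.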

Additional observations from a re-analysis of the deposited data

How the results depend on the processing

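All 10 markers kept a log2 fold change below 0 and stayed uncalled in each of the 15 alternatives, 150 values in all, with markers called lower or higher at 0 throughout. The median of the markers ran from -0.39 without knockout 3 to -0.21 without control 2. The lowest adjusted p of any marker was 0.119, for Crybb1 with no filter. Scaling by library totals moved the median of all genes from 0.02 to 0.08 and that of the markers to -0.23.

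Over all genes, edgeR called 5 higher and 2 lower. The counts were 60 and 42 with no filter, 46 and 33 in DESeq2 over all rows (1 of the 46 outside the genes edgeR tested), 9 and 6 in voom, 1 and 1 without the robust option, and 9 and 30 with both shallow libraries left out. Leaving out single libraries gave 1 to 15 higher and 1 to 35 lower. The cause was not tested. The number of markers with all knockouts below all controls, checked after the data had been seen, was 3 to 8 with single libraries left out, where 7.29% to 12.5% of all genes did so, and 8 without both shallow libraries, where 18.2% of all genes and 26% of genes of 100 CPM or more did so. Leaving out a library cannot lower this number, so its lower end of 3, the value with all libraries, was fixed in advance.

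The replicate numbers were not taken to pair the mice: deviations of same-numbered libraries had correlations of 0.32, -0.27 and -0.11 across genes. With the replicate block, 16 genes were higher and 9 lower, 0 of them markers. Depth limits control 3 most, where 3 reads correspond to 2.36 CPM.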
